A study of Mus musculus with 3 samples.

Results

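The genes described here are 42 genes of the cell division cycle, 21 that act in S phase and 21 that act in G2 and mitosis (G2/M), out of 33696 genes in the deposited matrices. They were chosen by symbol, and all 42 were found. They were followed across cell types of the mouse embryo trunk from the third cervical to the second thoracic segment, a piece that keeps the neural tube and from which forelimbs and thoracic organs were taken away. Single-cell RNA libraries were made by droplet capture at embryonic days E11.5, E12.5, and E13.5. Each library pooled 3 littermates, so each stage is 1 sample, and stages are compared without replicates. The labels give no strain, allele or treatment, and stage is the one difference between the groups that they name.

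A dividing cell copies its DNA in S phase and parts the copies in mitosis. Genes of replication licensing and nucleotide supply are transcribed from late G1 under E2F factors, and genes of the mitotic kinases, kinetochore and spindle follow later, under the MuvB, B-Myb and FoxM1 complexes. In the embryonic trunk, neural progenitors divide along the lumen of the neural tube until their daughters leave the cycle as neurons, myoblasts leave the cycle as they form muscle fibres, and mesenchyme divides while it gives rise to cartilage, tendon and dermis.

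The S phase list holds the subunits Mcm2, Mcm3, Mcm4, Mcm5, Mcm6 and Mcm7 of the replicative helicase with Cdc6, Cdc45 and Gins2, which load and start it. It also holds the sliding clamp Pcna, the nucleotide enzymes Rrm1, Rrm2 and Tyms, the uracil glycosylase Ung, the histone mRNA binding protein Slbp, Uhrf1, which keeps DNA methylation after replication, and Dtl, which marks replication factors for destruction. Its regulators are the cyclins Ccne1 and Ccne2, the activator E2f1 and the repressor E2f8. The G2/M list holds the kinases Cdk1, Aurka, Aurkb, Plk1 and Bub1, the cyclins Ccna2, Ccnb1 and Ccnb2, and Ube2c and Cdc20, which work with the anaphase promoting complex. It also holds the centromere and chromosome proteins Cenpa, Cenpe, Cenpf, Birc5, Top2a and Mki67, and the spindle proteins Tpx2, Kif11, Kif23, Nusap1 and Hmmr.

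After filtering, 6131, 6019 and 6947 cells remained at the 3 stages, with median depths of 12334, 10956 and 10179 UMIs (unique molecular identifiers, 1 for each captured transcript). Cells were put into classes by marker genes, none of them a member, and class names end in -like. Free RNA estimated from haemoglobin outside the red lineage made 2.18, 1.79 and 2.29% of UMIs, and estimated from neuronal transcripts in mesenchyme-like cells 4.48, 9.39 and 21.2%. The pools also differed in sex, with Xist in 65.3, 26.8 and 95.2% of cells, and pairs of libraries shared 9 to 16 cell barcodes. A level is given in CPM, UMIs of a gene or list scaled to 1000000 UMIs of the class, and intervals are exact 95% Poisson intervals that cover counting error only.

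Neural progenitor-like cells had the highest G2/M levels at E11.5 and E12.5, and neuron-like cells the lowest, among classes with 50 or more cells in the library, as the plot of summed levels by class shows. Among the same classes the S phase list was highest in neural progenitor-like cells at E11.5 and in myogenic progenitor-like cells, the dividing precursors of muscle, at E12.5 (2692 CPM). In neural progenitor-like cells the summed S phase level was 3180.0 CPM at E11.5 (interval 3145 to 3215) and 1995 CPM at E12.5 (1943 to 2049), and the summed G2/M level was 5699 and 4652 CPM. Neurogenic progenitor-like cells, which carry proneural genes, had 1074 and 686 CPM of the S phase list and 1645 and 984 CPM of the G2/M list at the same stages. Neuron-like cells had 484, 352 and 359.8 CPM of the S phase list and 305, 136 and 198 CPM of the G2/M list at the 3 stages. These G2/M levels were 11.6, 8.99 and 15.1% of those in near-empty droplets, and the part of free RNA in them was not tested. Mesenchyme-like cells, the largest class, had 2090.2, 1315 and 1408 CPM of the S phase list and 3619, 2163 and 2173 CPM of the G2/M list. In a summed class, fewer dividing cells and less RNA per dividing cell cannot be told apart.

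**Figure D1:**
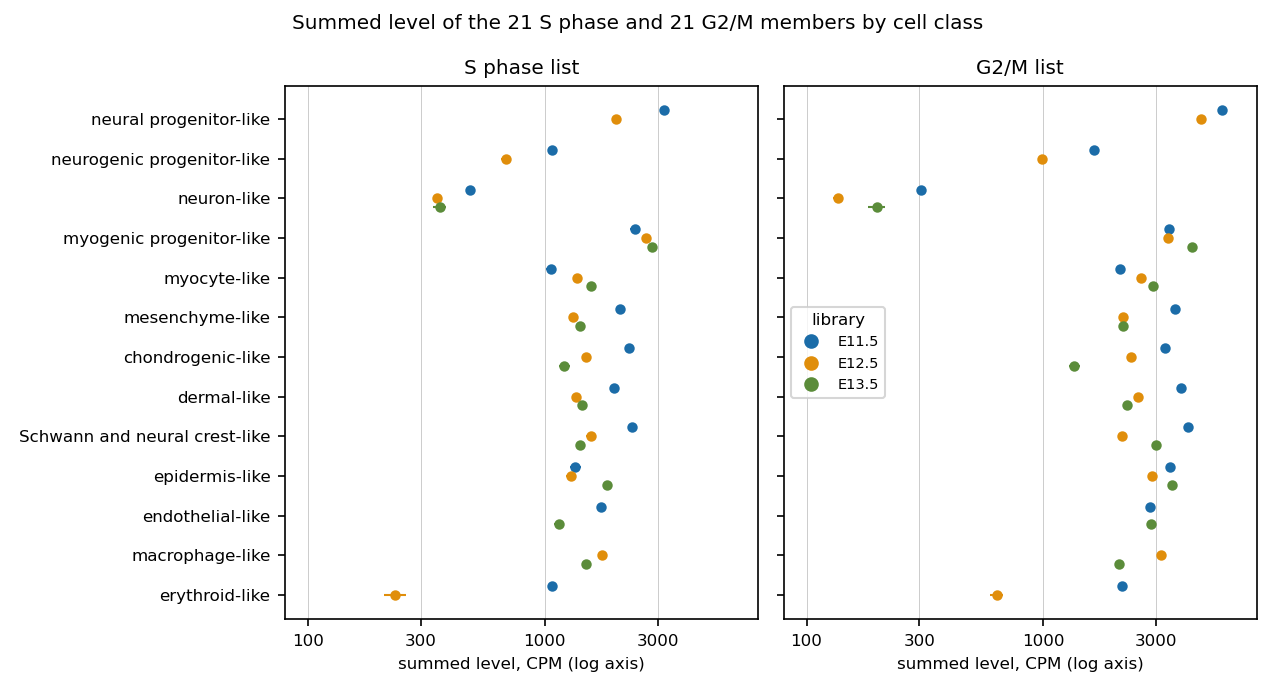
Summed level of the S phase list and of the G2/M list in CPM (log axis) per cell class and library, with exact Poisson 95% intervals, mostly smaller than the points. Neural progenitor-like cells lie highest in the G2/M list, at 5699 and 4652 CPM, and neuron-like cells lowest, at 305, 136 and 198 CPM; classes with under 50 cells in a library have no point there.

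The promoters of the members show what the choice by symbol did not use. RefSeq promoters of 300 bases (250 before to 50 after the start, build GRCm38.p6, whereas the counts are on GRCm39) matched 36 of the 42 members, 18 of each list. E2F letters (TTTCGCGC, TTTGGCGC, TTTCCCGC or TTTGCCGC on either strand) stood in 7 of 18 S phase promoters and 1 of 18 G2/M promoters, that of Cdk1, against 2.60% of the 27025 genes in the table. Letters of the cell cycle genes homology region, CHR (TTTGAA or TTCGAA on either strand), stood in 4 of 18 S phase and 14 of 18 G2/M promoters, against 21.7% of all genes. CCAAT on either strand stood in 13 of 18 S phase and 16 of 18 G2/M promoters, against 41.1% of all genes. Of the 109 matches in member promoters, 1 pair of different motifs overlapped. To show both kinds of letters in place, the 160 bases before the start are printed 5′ to 3′ along the gene for 3 S phase members, with E2F letters in capitals, and for 4 G2/M members, with CHR letters in capitals. The E2F letters of Cdk1 are thus printed in lower case. The CHR match nearest the start begins 15 bases before it in Cdk1, 19 in Kif11, 23 in Top2a and 98 in Mki67. A match is a run of letters, not a measured site.
Mcm6, chr1:128359706-128359865, - strand: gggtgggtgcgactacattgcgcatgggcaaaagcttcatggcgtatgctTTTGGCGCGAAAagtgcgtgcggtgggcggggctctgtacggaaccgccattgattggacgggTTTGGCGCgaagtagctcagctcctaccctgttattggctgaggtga
Dtl, chr1:191575545-191575704, - strand: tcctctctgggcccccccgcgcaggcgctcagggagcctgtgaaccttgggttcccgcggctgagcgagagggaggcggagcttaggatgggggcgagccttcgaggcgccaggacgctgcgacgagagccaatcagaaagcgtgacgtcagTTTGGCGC
Cdc6, chr11:98907991-98908150, + strand: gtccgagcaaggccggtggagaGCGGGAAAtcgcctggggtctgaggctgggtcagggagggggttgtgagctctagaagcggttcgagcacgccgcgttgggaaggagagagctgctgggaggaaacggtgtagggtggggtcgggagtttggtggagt
Cdk1, chr10:69352913-69353072, - strand: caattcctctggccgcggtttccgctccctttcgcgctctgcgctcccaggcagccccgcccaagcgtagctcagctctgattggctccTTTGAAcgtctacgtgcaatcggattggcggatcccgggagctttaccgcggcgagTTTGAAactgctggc
Top2a, chr11:99024190-99024349, - strand: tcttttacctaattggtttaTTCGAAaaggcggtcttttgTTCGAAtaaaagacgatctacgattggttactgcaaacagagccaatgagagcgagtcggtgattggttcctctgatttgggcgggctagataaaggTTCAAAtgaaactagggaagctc
Kif11, chr19:37376222-37376381, + strand: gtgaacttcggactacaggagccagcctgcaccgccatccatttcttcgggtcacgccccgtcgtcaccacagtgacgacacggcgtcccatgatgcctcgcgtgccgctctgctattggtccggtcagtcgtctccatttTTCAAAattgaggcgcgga
Mki67, chr7:135716380-135716539, - strand: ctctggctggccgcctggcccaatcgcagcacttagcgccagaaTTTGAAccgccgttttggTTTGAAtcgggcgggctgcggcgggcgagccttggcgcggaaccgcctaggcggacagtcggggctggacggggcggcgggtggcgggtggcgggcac

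A class of dividing progenitors was compared first with a largely post-mitotic class. All 21 S phase and all 21 G2/M members were higher in neural progenitor-like than in neuron-like cells (edgeR's quasi-likelihood test on counts summed per class and library, Benjamini-Hochberg adjusted p under 0.05, 19.0% of 14452 genes called higher), with median log2 ratios of 2.99 and 4.62 against −0.11 over all genes. This contrast rests on the E11.5 and E12.5 libraries for the progenitors. Library was a block in the fit, so p-values here measure how much class differences varied between libraries, over all classes of the fit. Each library is another stage, so stage and embryos cannot be told apart in that spread. Cenpf, a kinetochore protein, was at 458 and 429 CPM in progenitors and at 17, 7.06 and 11.1 CPM in neurons, with no overlap, and had the highest log2 ratio (5.22, SE 0.35, adjusted p = 1.1e-09 by edgeR's quasi-likelihood test). Hmmr, a spindle protein (4.95), and Top2a, the topoisomerase that untangles chromosomes (4.92), followed. The lowest ratios were those of Slbp, which binds histone mRNA (1.44), Mcm7, a subunit of the replicative helicase (1.71), and Pcna, the sliding clamp (2.27). Slbp was at 329 and 187 CPM in progenitors and 115, 75.9 and 71.5 CPM in neurons, and Mcm7 at 334 and 217 CPM in progenitors and 89.5, 68.3 and 72.2 CPM in neurons. Subunits of the same helicase thus differed in this ratio, since Mcm3 (4.38) was at 192 and 126 CPM in progenitors and 11.3, 4.91 and 4.67 CPM in neurons.

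Neurogenic progenitor-like cells, which could also carry neural progenitor or neuron markers, had most of both lists below neural progenitor-like cells. There 18 of 21 S phase and 21 of 21 G2/M members were lower (edgeR, 7.18% of 14452 genes called lower) and 0 were higher, with medians of −1.80 and −1.91 against 0.05 over all genes. The lowest were E2f8, a repressor of E2F targets (−2.63), Aurkb, the kinase of the chromosomal passenger complex (−2.50), and Ung, which removes uracil from DNA (−2.39). The 3 members not called were E2f1, an activator of S phase genes (0.47, SE 0.34, adjusted p = 0.4 by edgeR's quasi-likelihood test), Mcm2 (−0.27) and Mcm7 (−0.69). E2f1 was at 76.9 and 42.2 CPM in neural progenitor-like, 82.9 and 70.7 CPM in neurogenic progenitor-like and 9.06, 7.92 and 2.15 CPM in neuron-like cells. It was the 1 member that was higher in neurogenic cells in both libraries. Mcm2 was at 111 and 63.5 CPM in neural progenitor-like and 72.9 and 61 CPM in neurogenic progenitor-like cells, and Mcm3 at 192 and 126 CPM and 39.4 and 25 CPM. Without the E12.5 library 2 of the 42 members were called.

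Among 78 other cell cycle genes, of which 77 were tested, 68 were higher and 3 lower in neural progenitor-like than in neuron-like cells. The highest ratios were those of Cdkn2c, an inhibitor of the cyclin D kinases (5.75), Spc25 of the kinetochore (5.17) and Prc1 of the central spindle (5.17). The lower genes were the inhibitors Cdkn1a (−3.07), Cdkn1c (−2.08) and Cdkn2d (−0.85). In neurogenic against neural progenitor-like cells 59 of these genes were lower, with Exo1 (−2.77), Prc1 (−2.40) and Gmnn (−2.39) lowest, and 2 were higher, Cdkn1a (3.95) and Cdkn1c (3.61, SE 0.64, adjusted p = 0.00055 by edgeR's quasi-likelihood test). Cdkn1c, which encodes the inhibitor p57, was at 183 and 334 CPM in neural progenitor-like cells, 2540.1 and 3191 CPM in neurogenic progenitor-like cells and 1342, 1139 and 594 CPM in neuron-like cells. Of these 3 neural classes the neurogenic one had the highest level at E11.5 and E12.5. Shares of all genes called lower in neural progenitor-like than neuron-like cells, and higher in neurogenic than neural progenitor-like cells, are not given.

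Within neuron-like cells at E11.5 and E12.5 both lists were lower in cells with more neuron markers, a split chosen after the data were seen. At E11.5 the summed G2/M level was 2185, 228 and 118 CPM in cells with 3 to 5, 6 to 8, and 9 or more markers, and the S phase level was 1444, 469 and 364 CPM. At E12.5 the G2/M level was 777, 97.1 and 67.4 CPM and the S phase level 697, 342 and 274 CPM. The G2/M sum was above the S phase sum in cells with few markers and below it in the others, in both libraries. At E13.5 the first 2 steps had 182 and 156 CPM of G2/M, and 329 and 370.3 CPM of S phase, lower for one list and higher for the other. The last step there held 18 cells, 5.56% of them with 2 or more G2/M UMIs after thinning, and had 829 CPM of G2/M (692 to 986) and 317 CPM of S phase. The median depths of the 3 steps were 9216, 9314 and 11186 UMIs at E11.5 and 7275, 7960.0 and 11141 UMIs at E12.5, and their part in the result was not tested.

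In the muscle lineage, myogenic progenitor-like cells had 2399.5, 2692 and 2834 CPM of the S phase list and 3386, 3365 and 4232 CPM of the G2/M list at the 3 stages. Against mesenchyme-like cells 9 of 21 S phase and 6 of 21 G2/M members were higher and 0 were lower (edgeR, 11.2% of 12809 genes called higher and 15.6% lower), with medians of 0.76 and 0.69 against −0.13 over all genes. Without E11.5 the 15 calls became 37, without E12.5 0 and without E13.5 2. For this and the other runs that leave out a library, the share of all genes called is not given. A change in the members therefore cannot be told apart there from a change over all genes. Ccne1, the cyclin E that drives entry into S phase, was at 192, 291 and 458 CPM in myogenic progenitor-like, 60.9, 121 and 195 CPM in myocyte-like and 66, 48.3 and 58.8 CPM in mesenchyme-like cells. It had the highest ratio of the members against mesenchyme (2.56, SE 0.41, adjusted p = 0.00087 by edgeR's quasi-likelihood test), and the myogenic progenitor and mesenchyme values did not overlap. Neural progenitor-like cells, with the highest G2/M sums, had 67.1 and 38.9 CPM of Ccne1. Ung (1.28) and Cdc6, which loads the helicase (1.27), followed, and the lowest ratios were those of Mcm4 (0.01), the spindle protein Nusap1 (0.26) and cyclin B2, Ccnb2 (0.30). Ccne2, the other cyclin E, was at 25.5, 46.2 and 39.2 CPM in progenitors and 19.6, 16.2 and 22.5 CPM in mesenchyme, a log2 ratio of 1.06 that was not called.

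Against myocyte-like cells, which carry Myog and sarcomere genes, 8 S phase members were higher in myogenic progenitor-like cells and 1 was lower (edgeR, 3.08% of 12809 genes called higher and 7.24% lower), with a median of 0.76. Of the G2/M list 0 members were called by edgeR and 0 by DESeq2, and 2 had an unadjusted p under 0.05 by edgeR. The G2/M median was 0.35 against −0.01 over all genes, and the lowest G2/M ratio was 0.03, so all lay above 0. With only these 2 classes in the fit more members were called, as given at the end. For DESeq2, an unadjusted p and that fit, here and below, the share of all genes called is not given. Muscle cells carrying markers of both classes counted as myocyte-like, and their part in the result was not tested. The highest S phase ratios were those of Ung (1.35), Dtl, which marks replication factors for destruction (1.24), and Gins2 of the helicase (1.16, SE 0.19, adjusted p = 0.0016 by edgeR's quasi-likelihood test). Gins2 was at 111, 82.8 and 107 CPM in progenitors and 32.7, 42.4 and 40.8 CPM in myocyte-like cells, with no overlap. E2f8 was the member that was lower (−0.84, SE 0.25, adjusted p = 0.046 by edgeR's quasi-likelihood test), at 22.3, 15 and 29.5 CPM in progenitors and 32.7, 33.9 and 36.5 CPM in myocyte-like cells. The next lowest ratios were those of cyclin A2, Ccna2 (0.03), and the mitotic ubiquitin enzyme Ube2c (0.11). The 9 calls became 15 without E11.5, 1 without E12.5 and 2 without E13.5.

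Myocyte-like cells were then split by how many myocyte markers had a UMI, again after the data were seen, and the lists parted along these steps. At E12.5 the S phase level was 2139.6, 987 and 426 CPM with 3 to 5, 6 to 8, and 9 or more markers, while the G2/M level was 3455, 3351 and 737 CPM. At E13.5 the S phase level was 2533, 1188 and 382 CPM and the G2/M level 3655, 3829 and 683 CPM. At E11.5 the outer steps had 2038 and 352 CPM of S phase and 3411 and 496 CPM of G2/M, and the middle step, of 19 cells, had 1225 and 4027 CPM. From the first step to the second, 17 of 21 S phase members at E12.5 and 16 of 21 at E13.5 were lower by 1.5-fold or more on the log2(CPM + 10) scale, and 0 of 21 G2/M members were in either library. Of all genes with 20 or more UMIs, 6.82% of 8899 at E12.5 and 5.87% of 9145 at E13.5 were lower by that much, and 5.24% and 4.34% were higher. From the second step to the third, 21 of 21 G2/M members were lower by that much in each library, with medians of −1.91 and −2.12, and 15 of 18 and 18 of 20 S phase members with 20 UMIs were. At this step 9.70% of 8081 genes at E12.5 and 10.4% of 8277 at E13.5 were lower, and 8.11% and 6.05% higher. The S phase level was thus already low at a step where the G2/M level was not.

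Among single members Ccne1 and Top2a showed this order too, whereas E2f8 did not. Ccne1 was at 213, 62.6 and 21 CPM over the 3 steps at E12.5 and 369, 89.7 and 23 CPM at E13.5. Top2a was at 374, 356 and 53.7 CPM at E12.5 and 429, 393 and 48.5 CPM at E13.5. E2f8 was the S phase member with the highest ratio at every step, at 23, 27.1 and 55.5 CPM at E12.5 and 33.8, 39.2 and 38.2 CPM at E13.5. Cells with 2 or more G2/M UMIs, after each cell was thinned to 4000 UMIs, made 71.7, 59 and 20.5% of the steps at E12.5 and 80.6, 54.1 and 17% at E13.5, so that the share of cells was lower at the second step in both libraries. The median depth of the 3 steps was 22202, 17348 and 18585 UMIs at E12.5 and 15465, 14769 and 14203 UMIs at E13.5. Pax7, a gene of progenitors, was at 69 and 11 CPM in the first 2 steps at E12.5. The split has 1 library per stage and no test.

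Cdkn1a, which encodes the inhibitor p21, ran the other way, at 60.3, 277 and 839.5 CPM over the steps at E12.5 and 45.3, 243 and 689 CPM at E13.5. In the contrast over libraries Cdkn1a (−5.86, SE 0.83, adjusted p = 0.0004 by edgeR's quasi-likelihood test) and Rb1, the retinoblastoma gene (−3.62), were the 2 of 77 other cell cycle genes that were lower in myogenic progenitor-like than in myocyte-like cells, and 11 were higher. Orc1 of the origin recognition complex (1.51), Ccnd1 (1.39, not called) and E2f5 (1.30) had the highest ratios. Rb1 was at 3.18, 15.6 and 11.1 CPM in progenitors and 99.97, 103 and 142 CPM in myocyte-like cells, with no overlap. Cdkn1c was at 1717, 3710.1 and 5396 CPM in progenitors and 6660.0, 6987 and 9206 CPM in myocyte-like cells, a ratio of −1.29 that was not called, and both classes were above mesenchyme-like cells of the same stage (834, 1951 and 2912 CPM).

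**Figure D2:**
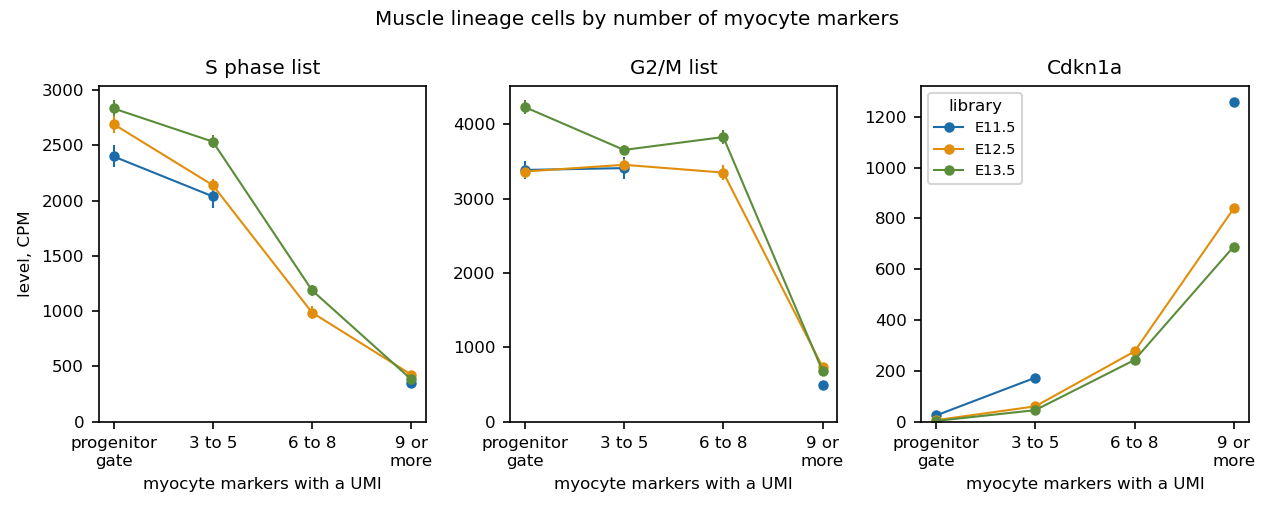
Level in CPM of the S phase list, the G2/M list and Cdkn1a in myogenic progenitor-like cells (progenitor gate) and in myocyte-like cells by the number of myocyte markers with a UMI, per library, with exact Poisson 95% intervals on the lists. At 6 to 8 markers the S phase list is at 987 and 1188 CPM while the G2/M list is at 3351 and 3829 CPM; E11.5, with 19 cells, has no point there.

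Between stages, mesenchyme-like cells at E12.5 had all 42 members below their E11.5 level, 12 of 21 S phase and 15 of 21 G2/M members by 1.5-fold or more, where 6.51% of 15830 genes were that much lower and 22.6% higher. The summed lists had log2 ratios of −0.67 and −0.74, and the median gene 0.14. Rrm2, the regulated subunit of ribonucleotide reductase, was at 205, 85.4 and 76.1 CPM at the 3 stages, and its first step was the lowest of the members (−1.27, interval −1.32 to −1.21). Cdc6 (−1.13) and Cdc45 of the helicase (−0.97) followed in the S phase list, and Cdc20, an activator of the anaphase promoting complex (−0.99), Cenpa, the centromeric histone (−0.96), and Aurka, a spindle pole kinase (−0.95), were lowest in the G2/M list. The smallest steps were those of Ccne2 (−0.28), Kif23, a motor of cytokinesis (−0.31), and E2f8 (−0.36). From E12.5 to E13.5, 0 of 42 members were past 1.5-fold (13.0% of 16339 genes lower, 8.59% higher), and the sums had ratios of 0.10 and 0.01. Cdk1, the mitotic kinase, was at 227, 152 and 188 CPM over the stages. The stage and the embryos pooled for it cannot be told apart.

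Chondrogenic-like cells, the part of mesenchyme with cartilage genes, had a second lower step. Their G2/M level was 3266, 2359 and 1353 CPM and their S phase level 2264, 1489.9 and 1212 CPM at the 3 stages. At E12.5, 10 S phase and 6 G2/M members were lower by 1.5-fold or more (8.03% of 11303 genes lower, 16.4% higher), and at E13.5 2 and 15 (14.8% of 10978 genes lower, 9.23% higher). The E13.5 sums had log2 ratios of −0.30 (−0.39 to −0.21) and −0.80 (−0.88 to −0.72). Ccnb1, the cyclin of mitotic entry, was at 117, 88.3 and 24.7 CPM, with a ratio of −1.84 (−2.47 to −1.26) at this step, followed by the spindle motor Kif11 (−1.55) and the checkpoint kinase Bub1 (−1.29). In the S phase list Uhrf1, a reader of hemimethylated DNA, had a ratio of 0.11 and Gins2 of 0.19, the highest of the list, and Ccne2 of −0.72, the lowest. The second step was thus larger in the G2/M list than in the S phase list. Dermal-like cells had 3833, 2521 and 2255 CPM of G2/M and 1965, 1357 and 1433 CPM of S phase, with 10 S phase and 12 G2/M members lower by 1.5-fold at E12.5 (6.20% of 12751 genes lower, 20.7% higher). At E13.5 0 of the 42 were lower by that much and 1, Ccne2 (0.84), was higher (12.0% of 14386 genes lower, 9.13% higher). Tendon-like cells reached 50 cells at E13.5 only, with 1582 CPM of S phase and 2169 CPM of G2/M.

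In neural cells the lists differed in this step. Neural progenitor-like cells at E12.5 had 14 of 21 S phase but 2 of 21 G2/M members lower by 1.5-fold or more (8.39% of 11883 genes lower, 20.4% higher), with summed ratios of −0.67 (−0.71 to −0.63) and −0.29 (−0.32 to −0.27). E2f1 (−0.86), Rrm2 (−0.86) and Slbp (−0.82) were lowest, and Cdk1 was at 269 and 303 CPM. E2f8 had the highest S phase ratio (−0.11). In cells with an Xist UMI and no Y-linked UMI the summed G2/M ratio was 0.09, of the other sign. Neurogenic progenitor-like cells had 13 and 16 members lower (11.1% of 11466 genes lower, 11.9% higher), and neuron-like cells 11 of 20 and 18 of 21 (10.4% of 13390 genes lower, 13.8% higher). At E13.5 neuron-like cells had 10 G2/M members higher by 1.5-fold (8.18% of 12559 genes higher). Bub1 had the highest ratio (1.42, interval 0.03 to 2.73, from 9 and 14 UMIs), while Cenpe was lowest (−0.96) in these cells. Their G2/M sum was then 15.1% of that in near-empty droplets of the library, whose free RNA share was 21.2% by the neuronal estimate, and the part of free RNA in the result was not tested. The 18 neuron-like cells with 9 or more markers at E13.5 held 128 G2/M UMIs, at 829 CPM. Of these cells 5.56% had 2 or more G2/M UMIs after thinning, and their part in the result was not tested either.

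In muscle the same interval looked different. Myocyte-like cells had 1062, 1365 and 1563 CPM of S phase and 2109, 2594 and 2902 CPM of G2/M at the 3 stages, and at E12.5 6 S phase and 3 G2/M members were higher by 1.5-fold or more and 0 lower (8.90% of 10535 genes higher, 15.3% lower). The summed ratios were 0.36 and 0.30, led by Ccne2 (1.41), Ung (1.25) and Ccne1 (1.0) in the S phase list and the proliferation marker Mki67 (0.78) in the G2/M list. The make-up of the class moved with this, with 34 and 53 cells of 3 to 5 and of 9 or more markers at E11.5 and 113 and 83 at E12.5, and its part in the result was not tested. Within cells of 3 to 5 markers the S phase level was 2038 CPM at E11.5 and 2139.6 CPM at E12.5, and the G2/M level 3411 and 3455 CPM. At E13.5 2 S phase members of myocyte-like cells were higher, Ccne2 (0.84) and Ccne1 (0.68) (6.31% of 11134 genes higher, 10.8% lower). Myogenic progenitor-like cells had 2 S phase members higher at E12.5, a smaller share of the list than of all genes (11.2% of 8363 genes higher, 10.5% lower). At E13.5 2 S phase and 3 G2/M members of that class were higher (6.89% of 9042 genes higher, 12.3% lower). At E12.5 these were Ccne2 (0.86) and Ccne1 (0.60), and at E13.5 E2f8 (0.98) and Ccne1 (0.66) of the S phase list and Nusap1 (0.86), Plk1 (0.76) and Hmmr (0.59) of the G2/M list, so that Ccne1 was among them at both steps.

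**Figure D3:**
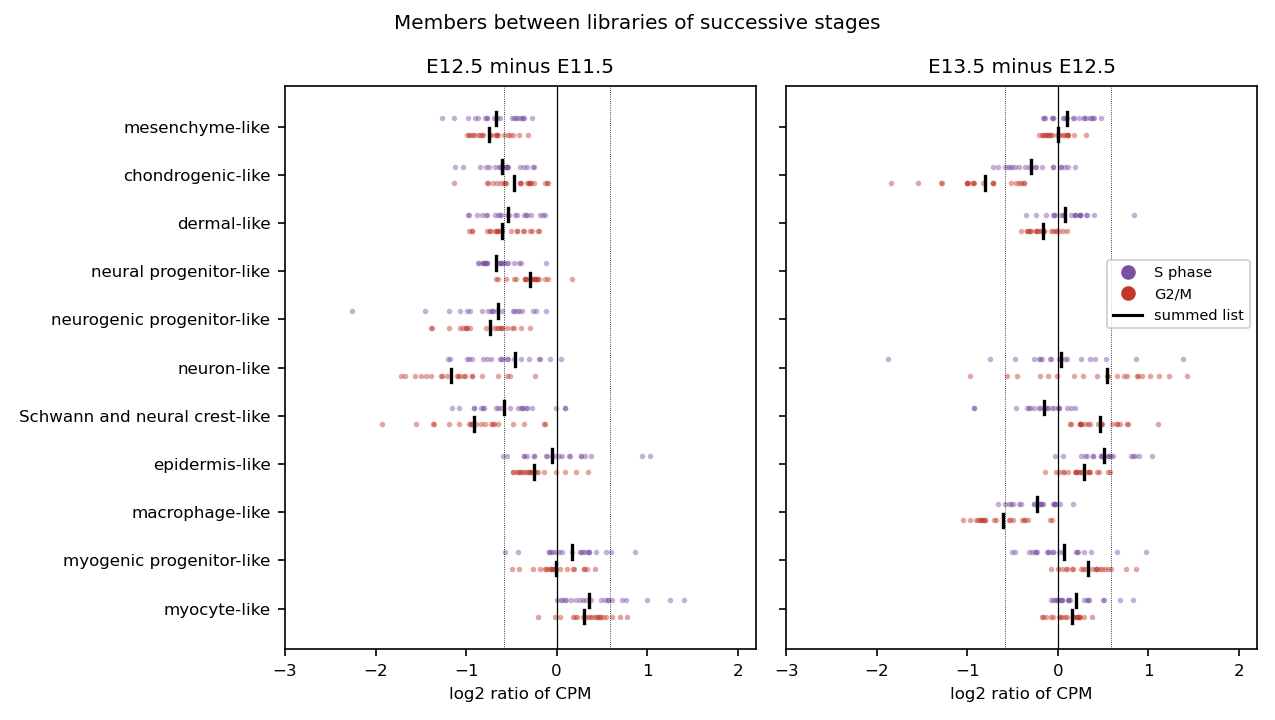
Log2 ratio of CPM between libraries of successive stages for each member (points) and for the summed lists (bars), per class, with dotted lines at 1.5-fold. In the left panel all points of mesenchyme-like cells lie below 0, with sums at −0.67 and −0.74, and the sums of myocyte-like cells lie at 0.36 and 0.30; classes with under 50 cells in either library have no points.

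Each class was also set against mesenchyme-like cells over the libraries. In neuron-like cells all 42 members were lower (edgeR, 28.9% of 12809 genes called lower and 31.1% higher), with medians of −2.68 and −3.53, from Hmmr (−4.12), E2f8 (−4.03) and Bub1 (−3.90) to Pcna (−1.35), Slbp (−1.14) and Mcm7 (−0.72, SE 0.24, adjusted p = 0.017 by edgeR's quasi-likelihood test). Neural progenitor-like cells had 6 S phase and 15 G2/M members higher and 0 lower (12.9% of 14452 genes called higher and 16.0% lower), led by Cenpf (1.71), Rrm2 (1.63) and E2f1 (1.57), with Ccne1 (−0.06), the thymidylate synthase gene Tyms (0.01) and Gins2 (0.03) lowest. Those 21 calls were 2 without E12.5 and 10 without E13.5. Myocyte-like cells had Ccne1 (1.43), E2f8 (1.42, SE 0.23, adjusted p = 0.00021 by edgeR's quasi-likelihood test) and Ccna2 (0.82) higher and Gins2 (−0.72) and Mcm4 (−0.68) lower (18.4% of 12809 genes called higher and 23.2% lower), and Mcm6 (−0.45) was not called. E2f8 was at 32.7, 33.9 and 36.5 CPM in myocyte-like and 18.7, 14.6 and 15.3 CPM in mesenchyme-like cells, with no overlap.

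Schwann and neural crest-like cells had 0 of 42 members called against mesenchyme-like cells by edgeR (8.84% of 12809 genes called higher and 10.4% lower) and 0 by DESeq2, with 2 at an unadjusted p under 0.05. The ratios ran from Gins2 (−0.48), Slbp (−0.33) and Ccne1 (−0.24) to Cdc6 (0.55), Uhrf1 (0.55) and Rrm1, the other reductase subunit (0.58). Their levels were 2340.1, 1569 and 1414 CPM of S phase and 4071, 2161 and 2997 CPM of G2/M, with 10 and 17 members lower by 1.5-fold at E12.5 (12.1% of 9574 genes lower, 20.1% higher). At E13.5 the summed lists had log2 ratios of −0.15 (−0.25 to −0.05) for S phase and 0.47 (0.39 to 0.55) for G2/M. By 1.5-fold, 2 S phase members were lower and 7 G2/M members higher (11.2% of 8886 genes lower, 10.1% higher). The lower S phase members were thus a smaller share of their list than of all genes. The lower ones were Mcm6 (−0.93) and Ccne2 (−0.92), and the higher ones Plk1 (1.10), Kif11 (0.78), Ube2c (0.76), Cdc20 (0.69), Nusap1 (0.66), Ccnb2 (0.65) and Birc5 (0.60). Epidermis-like cells had 1 member called, Cenpf (0.84, SE 0.26, adjusted p = 0.025 by edgeR's quasi-likelihood test; 12.1% of 12809 genes called higher and 16.2% lower), at 237, 214 and 246 CPM against 179.5, 124 and 109.9 CPM, with no overlap. Ung (0.78) and Ccnb2 (0.68) were next, and Ccne1 (−0.79), Ccne2 (−0.46) and Gins2 (−0.42) lowest. Their S phase level was 1347, 1296 and 1842 CPM and their G2/M level 3427, 2875 and 3501 CPM. At E12.5 2 S phase members were higher and 1 lower (13.0% of 8896 genes higher, 13.0% lower), and at E13.5 6 were higher, Cdc6 (1.04), Dtl (0.89), Ung (0.85), E2f8 (0.83), Mcm3 (0.81) and Mcm7 (0.61) (8.43% of 10445 genes higher, 19.8% lower). Without E11.5 the calls against mesenchyme numbered 27 in epidermis-like, 31 in myocyte-like and 5 in Schwann and neural crest-like cells, in place of 1, 5 and 0.

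Endothelial-like cells had 0 members called by edgeR (14.4% of 14452 genes called higher and 12.3% lower), 2 by DESeq2 and 4 at an unadjusted p under 0.05. For counts by DESeq2 and at an unadjusted p, here and in the other contrasts, the share of all genes is not given. The endothelial ratios ran from Ccne1 (−1.46), Dtl (−0.70) and Ccne2 (−0.64) to Cdc20 (0.55), Ccnb2 (0.71) and Cdk1 (0.74). Macrophage-like cells had 11 S phase and 5 G2/M members higher and 0 lower (26.0% of 14452 genes called higher and 23.0% lower), led by Mki67 (1.30), E2f1 (1.22) and Mcm3 (1.20), with Ccne1 (−0.76), Dtl (−0.39) and Ccne2 (−0.03) lowest. Mki67 was at 229 and 127 CPM in the libraries that held the class, against 88.3 and 95.1 CPM in mesenchyme-like cells. DESeq2 called 8 members, and without E11.5, a library in which this class has no sum, 33 were called, without E12.5 0 and without E13.5 7. At E13.5 12 G2/M and 1 S phase members of macrophage-like cells were lower by 1.5-fold or more (9.74% of 10012 genes lower, 8.32% higher).

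Erythroid-like cells depended on the scaling. With TMM scaling 11 S phase and 15 G2/M members were higher than in mesenchyme-like cells and 0 lower (18.3% of 14452 genes called higher and 20.4% lower), led by Mki67 (2.80), Ccnb2 (2.64) and Ccna2 (2.27), with Gins2 (−0.35), Ung (−0.23) and Mcm4 (−0.13) lowest and a median of −0.55 over all genes. Without E11.5 the calls were 13 higher and 2 lower, without E12.5 they numbered 19, and with only these 2 classes in the fit 16. In CPM 39 of the 42 members were lower in both libraries, where haemoglobin made 60.6 and 77.3% of erythroid UMIs. Without haemoglobin in the total the summed G2/M level was 5488 and 2806 CPM, above 3619 and 2163 CPM in mesenchyme-like cells, and the S phase level 2727 and 1031 CPM against 2090.2 and 1315 CPM. Thus the S phase direction without haemoglobin was higher at E11.5 and lower at E12.5. From E11.5 to E12.5, 20 S phase and 21 G2/M members had lower CPM by 1.5-fold, where 73.3% of 5095 genes did and 5.77% were higher.

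**Figure D4:**
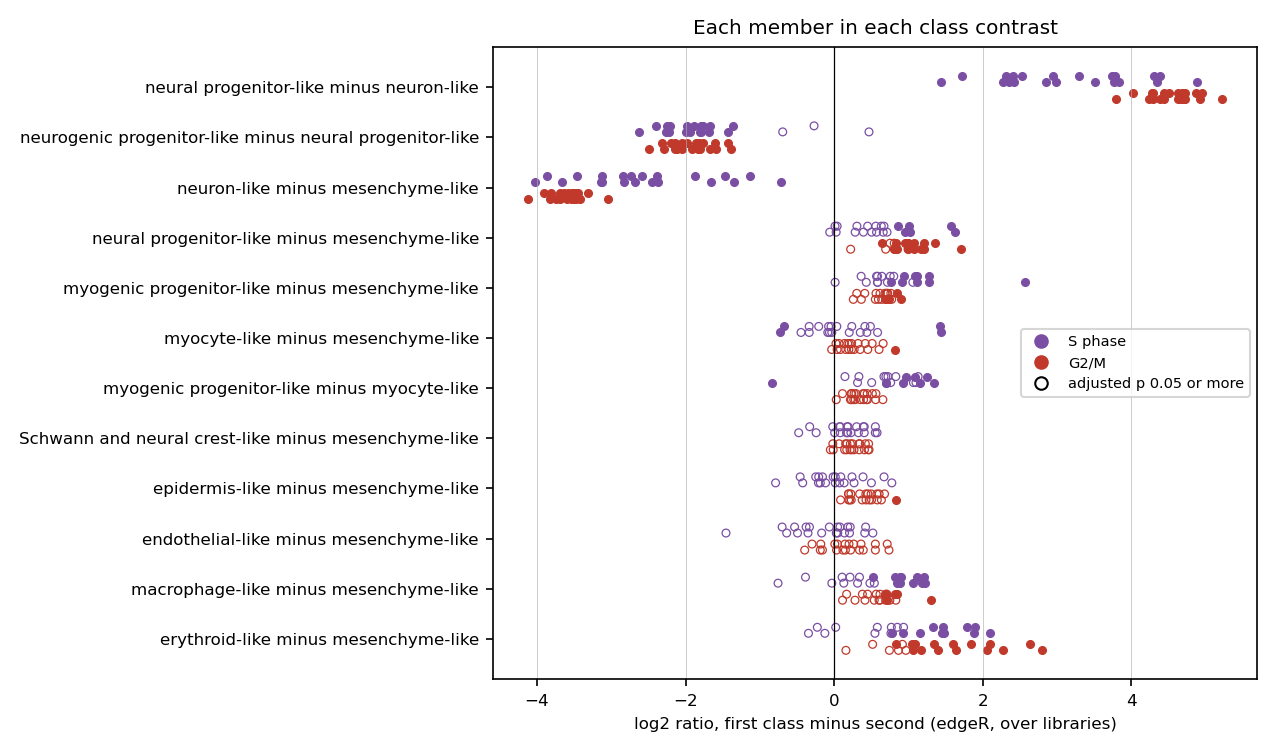
Log2 ratio of each member in each of 12 contrasts between classes, fitted over libraries with edgeR, with filled points for an adjusted p under 0.05. All 42 points are filled for neural progenitor-like minus neuron-like cells (medians 2.99 and 4.62) and for neuron-like minus mesenchyme-like cells, and 0 are filled for Schwann and neural crest-like and for endothelial-like minus mesenchyme-like cells.

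Single cells were compared after thinning each to 4000 UMIs. Cells with 2 or more G2/M UMIs made 70.3, 38.6 and 40.5% of mesenchyme-like cells at the 3 stages (exact interval at E11.5 68.5 to 72.1%), 88.4 and 64.3% of neural progenitor-like and 76.5, 81.6 and 88.5% of myogenic progenitor-like cells. Neuron-like cells, a largely post-mitotic class set beside the others as the background level, had 12.4, 4.42 and 7.67%. The part of free RNA and of cells with few neuron markers in those shares was not tested. The shares were 61.9, 40.9 and 27.6% in chondrogenic-like, 50.9, 52.1 and 54.9% in myocyte-like and 59.7, 46.2 and 74.9% in epidermis-like cells. S phase UMIs set the classes less apart, with 2 or more in 93.9, 77.1 and 77% of mesenchyme-like and 49.1, 39.7 and 34.4% of neuron-like cells. Mesenchyme-like cells with 2 or more G2/M UMIs were deeper before thinning than those with none of either list. Their medians were 13808 and 9897 UMIs at E12.5 and 11752 and 7749 UMIs at E13.5, ratios of 1.40 and 1.52. This ratio was 0.96 and 1.22 in myocyte-like cells at the same stages. It was 0.97 and 0.96 in neurogenic progenitor-like cells at E11.5 and E12.5, and 1.09, 1.01 and 1.02 in neuron-like cells at the 3 stages.

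S phase members differed in how often they were found in the same cell as the G2/M list. At E12.5, Rrm2 was found in 33.6% of 1164 mesenchyme-like cells with 2 or more G2/M UMIs and in 6.0% of 1250 cells with none, and the ratio of the shares was 2.99, 5.60 and 6.07 over the 3 stages. It was 3.84, 6.17 and 5.06 for Cdc45, 2.78, 3.89 and 6.49 for E2f8, 1.94, 3.90 and 3.30 for Tyms and 1.96, 4.37 and 5.26 for Cdc6. Mcm6 was found in 26.1 and 26% of the same cells at E12.5, and its ratio was 0.86, 1.0 and 1.36. Mcm2 (0.89, 1.13 and 1.41), Mcm4 (0.83, 1.07 and 1.13) and Slbp (1.14, 1.21 and 1.43) also had ratios under 1.5 in the 3 libraries. The ratios of the helicase subunits Mcm2, Mcm4 and Mcm6 thus lay below those of Rrm2 and Cdc45 at each stage. Each of these subunits had its highest ratio at E13.5. These cells share a library, and the ratios are a description with no test.

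**Figure D5:**
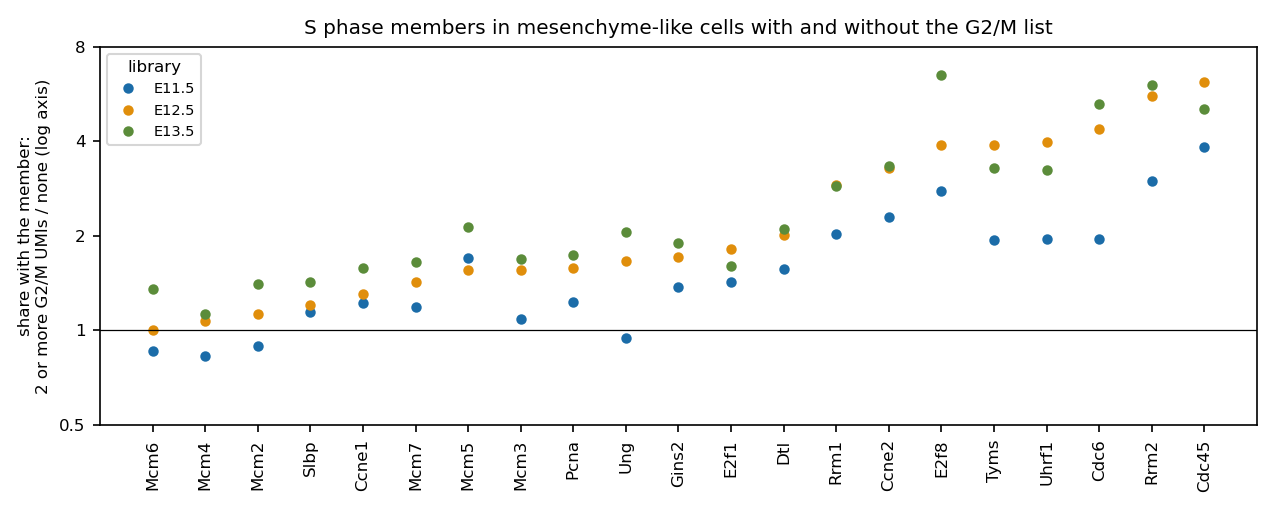
Share of thinned mesenchyme-like cells with a UMI of each S phase member among cells with 2 or more G2/M UMIs, divided by the share among cells with none, on a log axis, per library. Mcm4 lies at 0.83, 1.07 and 1.13 and Rrm2 at 2.99, 5.60 and 6.07 over the 3 stages.

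Across 28 class and library sums the 2 lists had a Pearson r of 0.90 on the log2(CPM + 10) scale, a description, since the sums share libraries and embryos. The members least like their own list were E2f1 (0.61), Ccne1 (0.70) and E2f8 (0.78) in the S phase list and Mki67 (0.92) in the G2/M list. Of 10645 genes compared, those outside the lists most like the S phase sum included Tipin (0.98), Mms22l, Smc2, Clspn, Fbxo5, Usp1, Kif15, Gmnn and Shcbp1 (0.95), and those most like the G2/M sum were Cdca8 (0.99), Cdca3, Cks2, Knstrn, Tacc3, Hmgb2, Dlgap5, Smc4, Spc24 and Nuf2 (0.95).

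The 77 other cell cycle genes were compared with mesenchyme-like cells in the same fits. Of them 4 higher and 64 lower were called in neuron-like cells, 34 higher and 3 lower in neural progenitor-like, 25 higher and 1 lower in myogenic progenitor-like, 7 higher and 4 lower in myocyte-like, 6 higher and 2 lower in Schwann and neural crest-like, 9 higher and 3 lower in epidermis-like, 2 higher and 3 lower in endothelial-like, 30 higher and 4 lower in macrophage-like and 40 higher and 4 lower in erythroid-like cells. The shares of all genes called are given with each contrast above. Smaller shares of these genes than of all genes were called, in both directions, in myocyte-like, Schwann and neural crest-like, epidermis-like and endothelial-like cells. In neuron-like cells Rb1 (2.81) and Cdkn2d (1.38) had the highest ratios, and the cytokinesis gene Anln (−4.48), cyclin D2, Ccnd2 (−4.03), and the checkpoint kinase Ttk (−3.97) the lowest. In myocyte-like cells Cdkn1a (6.93), Rb1 (4.51) and E2f2 (2.98) were highest and Ccnd2 (−2.40), Ccnd1 (−2.35) and Cdkn1b (−1.26) lowest. Ccnd2 was at 102, 60.9 and 54.6 CPM in myocyte-like, 292, 163 and 126 CPM in myogenic progenitor-like and 460.0, 434 and 468 CPM in mesenchyme-like cells. Ccnd3, the third cyclin D, was at 290.0, 327 and 303 CPM in myocyte-like, 292, 330.1 and 379 CPM in myogenic progenitor-like and 137, 148 and 193 CPM in mesenchyme-like cells, lowest where Ccnd2 was highest.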

How the data were processed

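The members, gene lists and several rules were chosen with earlier results of these data known. The authors' deposited files are UMI counts for each gene and droplet barcode, with no normalization, made with Cell Ranger 8.0.1 on GRCm39 according to the submitters' processing notes. Libraries used 10x Chromium 3' v3.1 chemistry, per the labels' protocols, and the gene annotation version was not given in the sources used here. Each stage is 1 library from 3 pooled littermates, and the libraries held 103383215, 94155624 and 113402193 UMIs.

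Barcodes needed 4000 UMIs, 500 detected genes and no more than 10% of UMIs from mitochondrial genes. Scrublet doublets (scanpy 1.11.5) were removed, 182, 121 and 167 barcodes or 2.88, 1.97 and 2.35%. Each cell was thinned to 4000 UMIs and took the class of which it carried at least 3 markers, with a lead of 1 over other lineages. Within a lineage the order was fixed. Muscle cells with 3 myocyte markers were myocyte-like, whatever progenitor markers they carried. Neural cells with 3 sympathetic markers were sympathetic-like, and others with 3 proneural markers were neurogenic progenitor-like. Remaining neural cells with 3 markers of both progenitors and neurons were left unassigned. Cells above 5% haemoglobin outside the erythroid class were left unassigned, and this gate was set after the files were seen. Unassigned cells numbered 634, 418 and 375 and enter no class.

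Levels have exact Poisson intervals and shares exact Clopper-Pearson intervals at 95%. Ratios between stages have exact conditional binomial intervals and no p, and cover genes with 20 or more UMIs in the pair of sums. Between classes, counts summed over at least 50 cells were tested with edgeR 4.0.16 in R 4.3.3 (TMM, quasi-likelihood test, library as a block, Benjamini-Hochberg adjustment over all genes). The planned fit held the 6 classes with 50 cells in all 3 libraries (12809 genes). Neural progenitor-like cells numbered 40 at E13.5, so contrasts of classes missing from that fit came from a second fit of the 11 classes with 50 cells in at least 2 libraries (14452 genes), added after cell numbers were seen. In each contrast the 3 members with the highest and the 3 with the lowest ratio are named, with others that have a value in the text chosen after their values were seen. DESeq2 1.42.0, other filters and gates, and leaving out each library were tried as alternatives. The scripts were tested on simulated data. An item among the genes most like the S phase list is not reported here.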

Additional observations from a re-analysis of the deposited data

Results flagged for a closer look

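Between E11.5 and E12.5 the summed lists had ratios of opposite sign in myocyte-like and mesenchyme-like cells, with intervals that leave out 0, and so had the S phase list in myogenic progenitor-like cells. The summed S phase list had a log2 ratio of 0.36 in myocyte-like cells and 0.17 in myogenic progenitor-like cells against −0.67 in mesenchyme-like cells, and the summed G2/M list 0.30 in myocyte-like cells against −0.74. The G2/M ratio of myogenic progenitor-like cells was −0.0090 (interval −0.072 to 0.054), which holds 0. Between E12.5 and E13.5 the S phase list had a log2 ratio of −0.15 in Schwann and neural crest-like and −0.23 in macrophage-like cells against 0.10 in mesenchyme-like cells. The differences between classes were not tested, since each stage is 1 library.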

How the results depend on the processing

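Of 403 alternative values of 60 results, 232 kept their direction and size or call, 167 moved and 4 changed sign. In cells with an Xist UMI and no Y-linked UMI, the summed G2/M log2 ratio of neural progenitor-like cells at E12.5 became 0.089, and those of dermal-like cells at E13.5 became −0.038 for S phase and 0.030 for G2/M. With 1 more marker required the dermal-like S phase ratio was −0.038. Mesenchyme-like cells with the G2/M list made 85.5, 61.6 and 59.7% at the 3 stages without thinning, 83.0, 58.6 and 62.2% at a minimum of 1 UMI, and 59.7, 27.5 and 28.8% at 4 UMIs. The 42 calls for neural progenitor-like minus neuron-like cells kept their number under every alternative run.

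With only the 2 classes compared in the fit, the members called numbered 30 for myogenic progenitor-like minus myocyte-like and 33 for myogenic progenitor-like minus mesenchyme-like cells. Against mesenchyme-like cells that setting gave 3 in myocyte-like, 6 in Schwann and neural crest-like, 2 in epidermis-like, 2 in endothelial-like, 29 in macrophage-like and 16 in erythroid-like cells. Without the library block the counts were 4 for myogenic progenitor-like minus myocyte-like cells and, against mesenchyme-like cells, 6 in myogenic progenitor-like, 12 in neural progenitor-like and 4 in macrophage-like cells. DESeq2 size factors, DESeq2 and no filter on low counts gave 8, 8 and 8 in macrophage-like and 1, 2 and 1 in endothelial-like cells, and the first pair gave 2 and 2 in epidermis-like cells. Epidermis-like cells had 0 with 1 more marker required, 0 with doublets kept and 2 with the 11 classes in the fit, and macrophage-like cells had 9 with 1 more marker. The stricter gate gave no value for endothelial-like cells and for the contrasts of myogenic progenitor-like cells.

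Leaving out each library in turn, the counts ran from 1 to 15 for myogenic progenitor-like minus myocyte-like and from 2 to 39 for neurogenic minus neural progenitor-like cells. Against mesenchyme-like cells they ran from 0 to 37 in myogenic progenitor-like, 2 to 31 in myocyte-like, 0 to 5 in Schwann and neural crest-like, 0 to 27 in epidermis-like, 2 to 27 in neural progenitor-like, 0 to 7 in endothelial-like, 0 to 33 in macrophage-like and 15 to 22 in erythroid-like cells. Where this left a class with 1 sum, that sum was assumed to vary like the others. The cause of these changes was not tested. The share of all genes called in each run is not given, so a change in the members cannot be told apart from a change over all genes. Between stages, no paired analysis was possible because each is 1 library, whereas the class contrasts held the library as a block. Depth limits members under 20 UMIs in a pair of sums, for which no ratio is given.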
